A study of Mus musculus with 22 samples.

Results

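Genes that mark the non-malignant cells of a lymphoma were examined in bulk RNA from mouse B lineage tumours. The set holds 34 of the 52636 genes in the count table, chosen by symbol from a list of cell type markers: 15 macrophage genes, 11 neutrophil genes, 3 endothelial genes, 4 fibroblast genes and Siglech, a marker of plasmacytoid dendritic cells. No measured value entered the rule, though the list was chosen with earlier results of these data known. All 34 genes had counts. The study sequenced the 3' ends of messenger RNA in 22 lymphoma libraries. It classed the tumours by immunophenotype as resembling mantle cell lymphoma (MCL-like) or not (non-MCL). The tumours arose in 15 mice of strain mixed (129/C57Bl6). The 8 transplant libraries came from NSG host mice, which are not counted among the 15.

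All tumours carried floxed p53 alleles and a Cre transgene under Mb1, a promoter of the B lineage; macrophages, neutrophils, vessels and fibroblasts lie outside that lineage. Transplants made up 8 of the libraries, all taken from the spleens of NSG mice, which lack T, B and NK cells but keep myeloid and stromal cells of their own. MCL-like transplants (6 libraries from the tumours of 4 mice) and Ccnd2 non-MCL transplants (2 libraries from the tumour of 1 mouse) had the genotype R26-Ccnd2tg/tg;p53fl/fl;Mb1Cretg/+. MCL-like primaries (4 mice) and Ccnd2 non-MCL primaries (3 mice) had the same genotype, which adds a cyclin D2 transgene. The p53-only primaries (7 libraries from 6 mice, all non-MCL) had the genotype p53fl/fl;Mb1Cretg/+. The titles of the 6 MCL-like transplants say non-MCL while their immunophenotype field says MCL-like, and the field was followed. Of the 14 primary libraries, 8 came from the spleen, 2 were mediastinal, 1 was mesenteric, 1 was a thymoma and 2 had no stated site. RNA was prepared from lymphoma cells that had been frozen fresh.

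Libraries held 2693399 to 8146613 counts, so 3 counts, the limit that a count of 0 allows, stood for 0.368 to 1.11 CPM, the count of a gene scaled by the total of its library. Erythroid transcripts were prominent in several libraries, with 10 erythroid genes summing to 248.8 to 110800 CPM in primaries. The 6 B lineage genes summed to 1420 to 6741 CPM in primaries. Spleen p53-only replicate 3 had the highest summed level of the 11 neutrophil genes (4712 CPM) and of the 15 macrophage genes (1848 CPM) in the series. Ccnd2 non-MCL primaries came close, with 4453 CPM of neutrophil genes in replicate 3 (spleen) and 1786 CPM of macrophage genes in replicate 1 (mediastinal). The count of calls by site is also given without each mouse in turn.

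The spleen houses red pulp macrophages that clear ageing red cells, marginal zone macrophages that trap particles, and a store of neutrophils and monocytes. Neutrophils load their granules in sequence as they mature: primary granules with elastase and myeloperoxidase in promyelocytes, secondary granules with lactoferrin and lipocalin in myelocytes, and gelatinase granules last. Transcripts of primary and secondary granule proteins therefore mark immature cells, while S100a8 and S100a9 stay high in mature ones. Endothelial cells and fibroblasts form the vessels and the collagen scaffold on which lymphoid cells lie.

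C/EBP and PU.1 are transcription factors with well-known roles in granulocyte and myeloid genes. Their motifs were searched, on both strands, in the 250 bases before the RefSeq start (GRCm38.p6) of the 24 members with a promoter entry. The letters were TTGCNNAA for C/EBP and GAGGAAGT for PU.1, and these motifs do not overlap one another here. The C/EBP letters were present in 6 of 10 neutrophil promoters, those of S100a9, Ngp, Ltf, Lcn2, Retnlg and Mmp8, against 1 of 10 macrophage promoters (Cd68) and 9.55% of all 27025 promoters. The PU.1 letters were in 4 of 10 neutrophil promoters, those of S100a8, Mmp8, Elane and Mpo, against 1 of 10 macrophage promoters (C1qc) and 2.44% of all promoters. Siglech also holds the C/EBP letters. Csf1r, Adgre1, C1qa, Vcam1, Hmox1, Mmp9, Pecam1, Cdh5, Col1a1 and Dcn had no entry. A match describes the letters of the window and shows no binding. Windows ahead of both the RefSeq and the GENCODE start are printed for 3 secondary granule and neutrophil genes whose levels differ by tumour site below, and for Mmp8 and Elane, which hold the PU.1 letters. Matches on either strand are in capitals, and the windows are chr9:110419558-110419746 (Ngp), chr9:111019042-111019270 (Ltf), chr16:48872358-48872607 (Retnlg), chr9:7558179-7558428 (Mmp8) and chr10:79886062-79886246 (Elane), all on the plus strand.
Ngp: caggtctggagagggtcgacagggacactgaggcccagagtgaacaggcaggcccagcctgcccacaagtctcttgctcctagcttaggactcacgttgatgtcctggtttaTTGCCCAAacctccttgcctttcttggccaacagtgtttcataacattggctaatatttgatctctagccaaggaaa
Ltf: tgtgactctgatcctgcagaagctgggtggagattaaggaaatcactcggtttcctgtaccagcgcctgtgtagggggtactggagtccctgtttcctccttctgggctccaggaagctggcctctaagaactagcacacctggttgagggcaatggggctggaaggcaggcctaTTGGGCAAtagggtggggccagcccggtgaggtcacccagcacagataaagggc
Retnlg: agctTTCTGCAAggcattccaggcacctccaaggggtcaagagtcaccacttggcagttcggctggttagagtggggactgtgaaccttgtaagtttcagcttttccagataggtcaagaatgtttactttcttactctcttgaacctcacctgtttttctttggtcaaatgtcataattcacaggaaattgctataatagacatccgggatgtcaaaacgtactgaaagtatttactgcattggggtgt
Mmp8: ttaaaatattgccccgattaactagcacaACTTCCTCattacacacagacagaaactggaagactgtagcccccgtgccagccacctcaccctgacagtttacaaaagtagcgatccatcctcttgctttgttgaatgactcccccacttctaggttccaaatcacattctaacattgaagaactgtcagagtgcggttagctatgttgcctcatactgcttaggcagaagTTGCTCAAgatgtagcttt
Elane: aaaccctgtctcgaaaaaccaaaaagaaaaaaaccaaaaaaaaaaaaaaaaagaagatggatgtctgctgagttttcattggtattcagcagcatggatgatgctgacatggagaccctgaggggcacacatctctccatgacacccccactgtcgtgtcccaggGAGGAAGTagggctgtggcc

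The tumour site was the variable along which the largest differences among these genes were found. Spleen primaries (8 mice) were compared with primaries of the other stated sites (4 mice: 2 mediastinal, 1 mesenteric, 1 thymoma), with the tumour group as a covariate, by the quasi-likelihood test of edgeR. Of the 34 members, 7 were called at an adjusted p under 0.05, 4 higher and 3 lower in the spleen. The background over all 12201 genes tested was 1.06% called, 0.877% higher and 0.18% lower. The 4 that rose were neutrophil genes and the 3 that fell were fibroblast genes. The median log2 fold change of the 34 members was 0.89, against 0.01 over all genes tested. Groups did not overlap for 6 members that were higher and 3 that were lower in the spleen, against 1.29% and 0.705% of all genes, or 2% in all. In these bulk samples, fewer cells of a type and less RNA per cell cannot be told apart.

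Ltf, which encodes the iron-binding secondary granule protein lactoferrin (ENSMUSG00000032496.7, chromosome 9, 111019271 to 111042767), gave the largest difference. Its TMM-scaled level in spleen primaries ran from 16.8 through a median of 34.7 to 182.7 CPM. Elsewhere it was 4.76 CPM in the mediastinal Ccnd2 non-MCL tumour, 2.89 CPM in the mesenteric MCL-like tumour, 0.571 CPM in the p53-only thymoma and 0 CPM in the mediastinal p53-only tumour, where 3 counts would be 0.824 CPM unscaled. Every spleen value thus lay above every value from another site. The log2 fold change was 5.32 (SE 1.08, adjusted p = 0.0387, edgeR).

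Ngp, a cathelicidin-like protein of neutrophil granules (ENSMUSG00000032484.8, chromosome 9, 110419747 to 110423012), ran from 48.0 through 98.4 to 461.3 CPM in spleen primaries. It was 26.7, 8.32, 5.90 and 1.23 CPM in the mediastinal Ccnd2 non-MCL, mesenteric MCL-like, thymoma and mediastinal p53-only tumours. The classes did not overlap, and the log2 fold change was 4.33 (SE 0.93, adjusted p = 0.0492, edgeR). Lcn2, lipocalin 2, which binds bacterial iron carriers (ENSMUSG00000026822.14, chromosome 2, 32384633 to 32388252), had 5.35, 22.3 and 125.5 CPM as lowest, median and highest spleen values. Its levels in the same 4 tumours were 4.03, 1.45, 1.52 and 3.43 CPM, all below the lowest spleen value. The log2 fold change of Lcn2 was 4.08 (SE 0.82, adjusted p = 0.0375, edgeR).

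Retnlg, a resistin-like protein that mouse neutrophils make (ENSMUSG00000022651.5, chromosome 16, 48872621 to 48874496), was between 6.52 and 50.4 CPM in spleen primaries, with a median of 22.3 CPM. The mediastinal Ccnd2 non-MCL and mesenteric MCL-like tumours had 3.30 and 3.25 CPM, and the thymoma and the mediastinal p53-only tumour had 0.761 and 0.735 CPM. The classes were again separate, and edgeR gave an adjusted p = 0.0278 for the log2 fold change of 3.65 with its SE of 0.70. All 11 neutrophil genes had positive log2 fold changes, with a median of 3.65, and 10 of them had an unadjusted p under 0.05. Over all 12201 genes tested, 1834 had an unadjusted p that low.

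The other 7 neutrophil genes were not called. Mmp8, neutrophil collagenase, did not overlap either, at 2.56 to 37.3 CPM in the spleen and 0.490 to 2.20 CPM at other sites (log2 fold change 3.65, SE 0.83, adjusted p = 0.0596, edgeR). Camp, the antimicrobial peptide precursor cathelicidin, had a larger fold change with more spread (4.55, SE 1.16, adjusted p = 0.0926, edgeR), and the spleen minimum of 17.5 CPM lay below the 19.8 CPM of the mediastinal Ccnd2 non-MCL tumour. S100a8 and S100a9, the subunits of the calcium-binding protein calprotectin, had log2 fold changes of 3.56 (SE 1.08) and 3.88 (SE 1.17), with adjusted p = 0.147 and 0.144 by edgeR. S100a8 ran from 56.5 through 301.0 to 1730 CPM in the spleen, and was 122.3, 55.0, 16.5 and 6.86 CPM in the mediastinal Ccnd2 non-MCL, mesenteric MCL-like, thymoma and mediastinal p53-only tumours.

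Among the primary granule genes, Elane (neutrophil elastase) gave 2.22 (SE 0.84) and Mpo (myeloperoxidase) gave 1.78 (SE 0.67) as log2 fold changes, with adjusted p = 0.238 and 0.237 by edgeR. Mmp9, the gelatinase of tertiary granules, was the neutrophil gene with the smallest value, 1.07 (SE 1.15, adjusted p = 0.698, edgeR). Its highest level was not in the spleen: the mediastinal Ccnd2 non-MCL tumour had 276.8 CPM, against at most 92.9 CPM in a spleen primary. The other 3 tumours outside the spleen had 1.23 to 6.51 CPM of Mmp9, so that library alone raised the class.

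**Figure D1:**
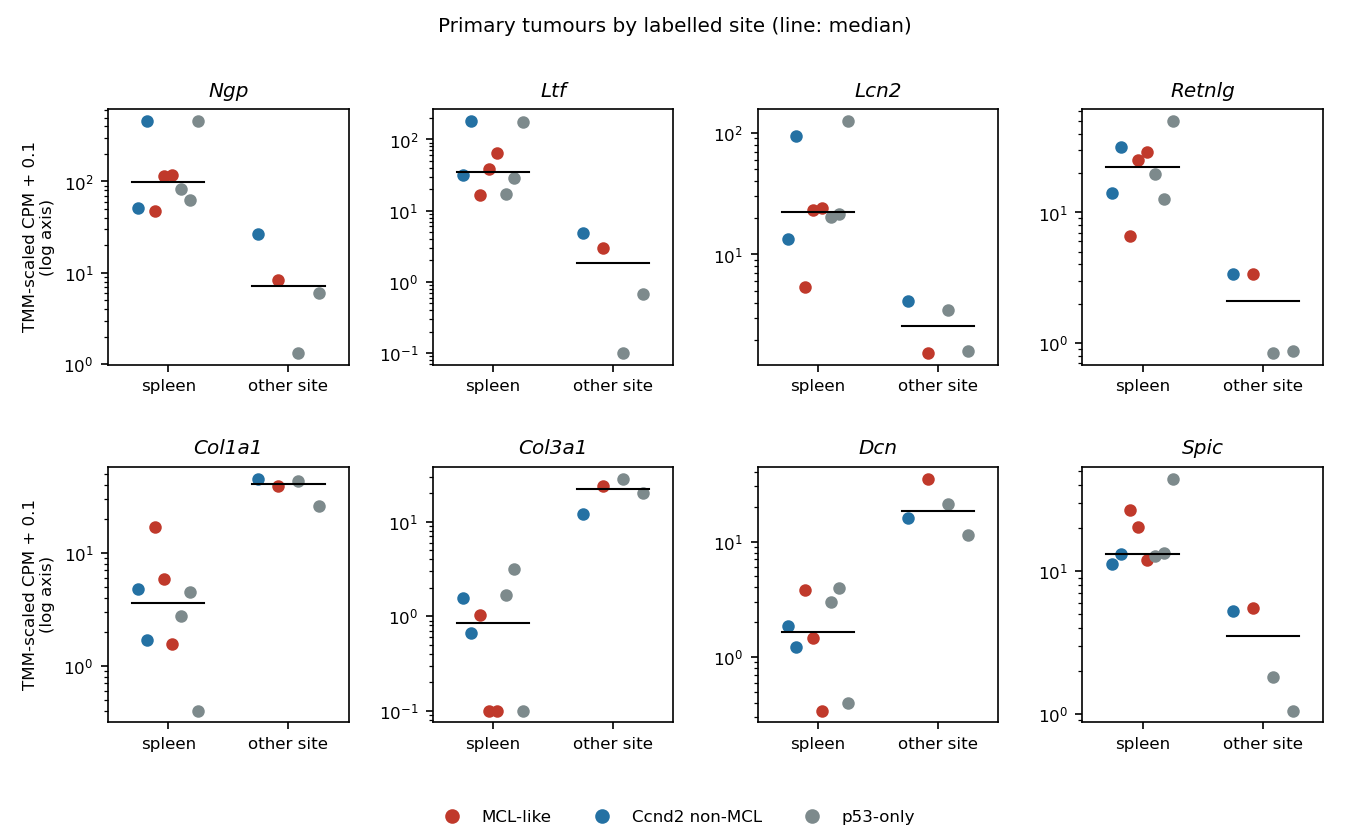
TMM-scaled CPM plus 0.1 (log axis) of 8 member genes in primary tumours of the spleen (8 mice) and of other stated sites (4 mice), with colours for the tumour group and a line at each median. Ngp, Ltf, Lcn2, Retnlg and Spic lie higher, and Col1a1, Col3a1 and Dcn lower, in every spleen tumour than in every other one.

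The fibroblast genes ran the opposite way. Col3a1, the fibrillar collagen III chain (ENSMUSG00000026043.18, chromosome 1, 45311538 to 45349706), was at 0, 0.748 and 3.04 CPM as lowest, median and highest value in spleen primaries. It was at 28.7 CPM in the mediastinal p53-only tumour, 23.9 CPM in the mesenteric MCL-like tumour, 20.2 CPM in the thymoma and 12.1 CPM in the mediastinal Ccnd2 non-MCL tumour. There was no count of it in 3 of the 8 spleen libraries, and the classes did not overlap. The log2 fold change was -4.45 (SE 0.77, adjusted p = 0.020, edgeR).

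Col1a1, the collagen I chain (ENSMUSG00000001506.10, chromosome 11, 94936224 to 94953042), was between 0.298 and 16.8 CPM in the spleen, with a median of 3.52 CPM. At the other sites it was between 26.1 and 45.8 CPM, and its log2 fold change was -3.43, with an SE of 0.65 and an adjusted p = 0.027 by edgeR. Dcn, the collagen-binding proteoglycan decorin (ENSMUSG00000019929.16, chromosome 10, 97479609 to 97518143), was between 0.242 and 3.89 CPM in the spleen, with a median of 1.56 CPM. It was between 11.2 and 35.1 CPM elsewhere, and its log2 fold change was -3.40, with an SE of 0.62 and an adjusted p = 0.0235 by edgeR. Cxcl12, the chemokine of stromal cells that binds Cxcr4 on B cells, overlapped between the classes, at 0.242 to 7.91 CPM in the spleen and 0.571 to 8.68 CPM elsewhere (log2 fold change -0.88, SE 0.91, adjusted p = 0.686, edgeR).

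**Figure D2:**
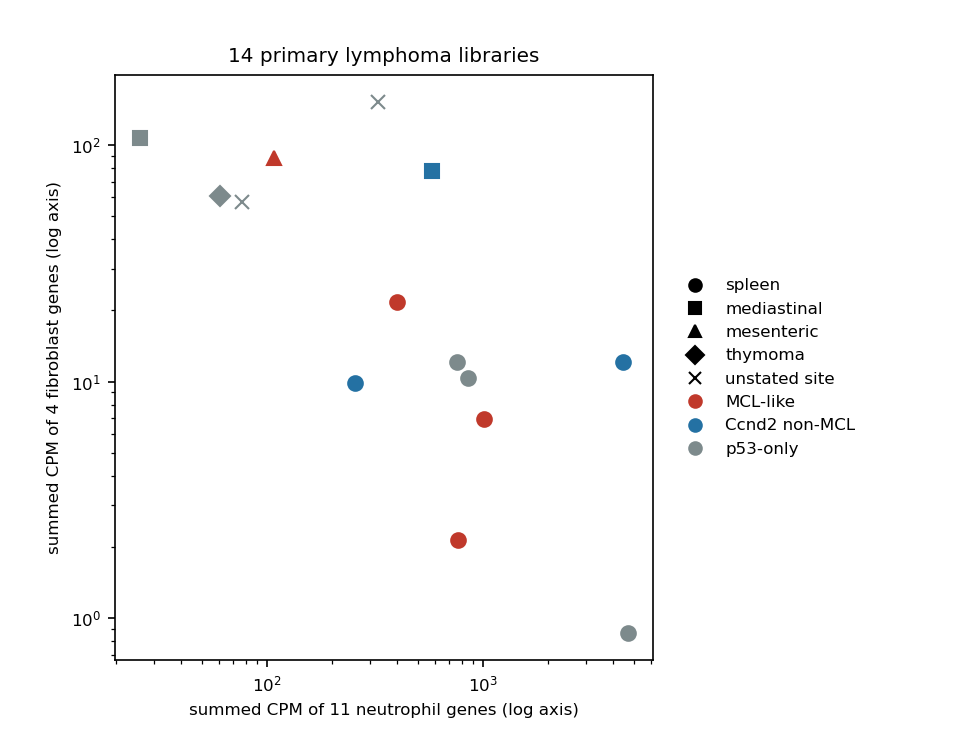
Summed unscaled CPM of the 11 neutrophil genes against that of the 4 fibroblast genes in the 14 primary libraries (both axes log), with marker shape for the site and colour for the tumour group. The 8 spleen libraries lie at or below 21.7 CPM of fibroblast genes, and the 6 others lie at or above 57.6 CPM.

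Of the 15 macrophage genes, 12 had positive log2 fold changes, with a median of 0.49, against 0.01 over all genes tested. None was called by edgeR, and 3 had an unadjusted p under 0.05, as did 1834 of all 12201 genes tested. Without the libraries whose sample names start with oTP, 7 of the 15 were positive, with a median of -0.002. DESeq2 called 737 genes, among them the macrophage genes Spic and Mertk. With no low-count filter, edgeR called 1002 of 26337 genes, among them Csf1r (adjusted p = 0.000253), Spic (adjusted p = 0.000959) and Cd5l (adjusted p = 0.0330). Their log2 fold changes were then 1.96, 2.56 and 1.61, close to those with the filter. With unstated sites counted as other sites, edgeR called 229 of 11965 genes, among them Spic (adjusted p = 0.0367). Spic, the transcription factor of red pulp macrophages, was at 11.1, 13.2 and 44.4 CPM as lowest, median and highest spleen value. It was 5.43 CPM in the mesenteric MCL-like, 5.13 CPM in the mediastinal Ccnd2 non-MCL, 1.72 CPM in the mediastinal p53-only and 0.951 CPM in the thymoma tumour. The classes did not overlap, and its log2 fold change was 2.56 (SE 0.63, adjusted p = 0.0804, edgeR). Mertk, a receptor for the uptake of dying cells, had 1.30 (SE 0.36, adjusted p = 0.106, edgeR).

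Csf1r, the receptor for macrophage colony-stimulating factor, gave 1.96 on the log2 scale, with an SE of 0.85 and an adjusted p = 0.308 by edgeR. It overlaps Hmgxb3 on the opposite strand, which had 3014 counts over all libraries against 9822 for Csf1r, and with the strand setting of the counting not given, its level is less certain. Other red pulp macrophage genes overlapped between sites: Vcam1, an adhesion molecule, gave 0.83 (SE 0.47), and Hmox1, which degrades haem, gave 0.49 (SE 0.65). Cd5l, a scavenger protein of tissue macrophages, gave 1.65 (SE 1.11), and it had no count in the mediastinal Ccnd2 non-MCL library, where 3 counts would be 1.11 CPM.

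None of the other macrophage genes was called by edgeR, and all of them overlapped between sites. C1qa, C1qb and C1qc, the chains of complement C1q, had log2 fold changes of 0.42 (SE 0.61), 0.96 (SE 0.67) and 0.34 (SE 0.55). C1qb averaged 73.4 ± 53.8 CPM in the spleen (SD, n = 8) and 41.8 ± 31.4 CPM elsewhere (n = 4). Cd68, a lysosomal protein, gave 0.22 (SE 0.52), and Adgre1, the F4/80 antigen, gave -0.42 (SE 0.64). Marco, a scavenger receptor of marginal zone macrophages, gave 0.76 (SE 0.67), and Timd4, a receptor for phosphatidylserine, gave 0.02 (SE 0.83) at levels of at most 7.88 CPM. Lyz2, lysozyme, and Mpeg1, a pore-forming protein of phagocytes, gave -0.85 (SE 0.80) and -0.28 (SE 0.59).

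The 3 endothelial genes and Siglech were not called by edgeR. Pecam1, which leukocytes also carry, was at 114.8 to 296.7 CPM in the spleen and 93.7 to 249.7 CPM elsewhere (log2 fold change -0.24, SE 0.36). Cdh5, the cadherin of endothelial junctions, was at or under 4.89 CPM in every primary of this comparison, and Kdr, a VEGF receptor, ranged from 1.19 to 44.3 CPM in the spleen and from 0.245 to 6.23 CPM elsewhere (1.25, SE 0.74). Siglech was at 102.7 CPM in the mesenteric MCL-like tumour and at most 6.56 CPM in the other 11.

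**Figure D3:**
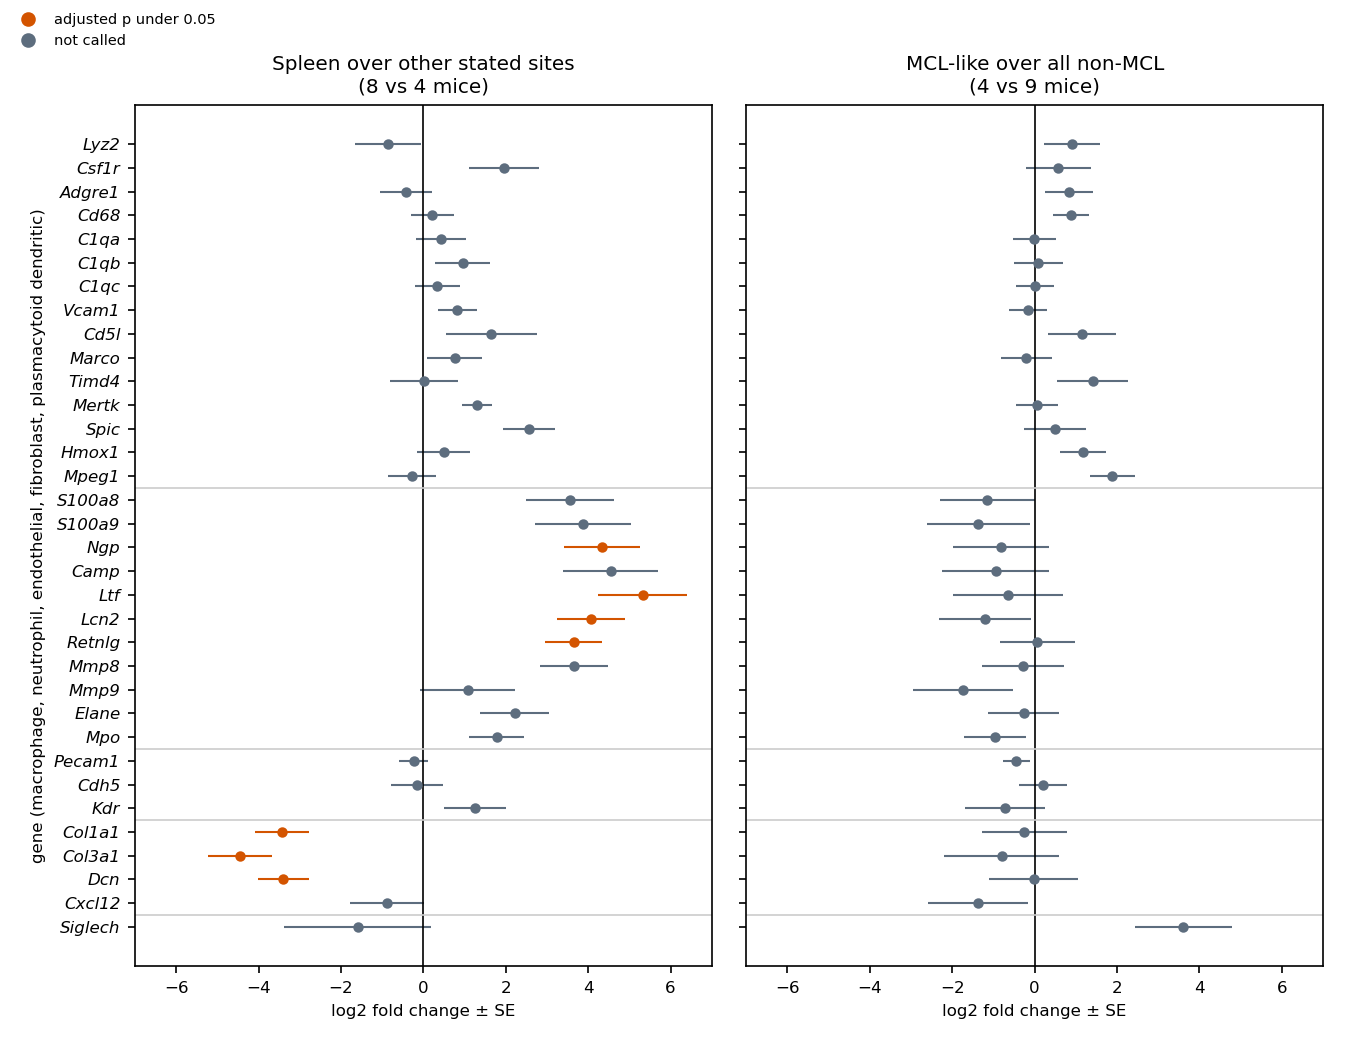
Log2 fold changes with standard errors of the 34 members, spleen over other stated sites (left) and MCL-like over all non-MCL primaries (right), grouped by cell type. The members called at an adjusted p under 0.05 (orange) are Ngp, Ltf, Lcn2, Retnlg, Col1a1, Col3a1 and Dcn, all in the comparison of sites.

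Wider marker lists were read alongside. The low-count filter left 15 of 19 macrophage, 5 of 15 endothelial, 9 of 15 neutrophil and 6 of 15 fibroblast genes. A gene near 0 in 1 class of site can pass this filter through the other class alone. Its sign is then set by the filter, so counts of signs in these lists are not separate support. Of 15 further macrophage genes tested, 14 were positive, with a median log2 fold change of 0.66, and of 7 further monocyte genes all were positive, with a median of 1.26. None of either list was called by edgeR, and 3 and 2 of them had an unadjusted p under 0.05. Without the oTP libraries, 9 of 16 macrophage genes and 2 of 7 monocyte genes were positive. Of 5 further endothelial genes tested, 4 were positive, with a median of 2.21. Egfl7, a secreted endothelial protein, gave 2.21 (SE 0.70, adjusted p = 0.160, edgeR), and Plvap, a protein of vessel fenestrae, gave 2.79 (SE 0.91, adjusted p = 0.176, edgeR). DESeq2 called 3 of the 5, and edgeR called none although 3 had an unadjusted p under 0.05. Of 9 further neutrophil genes tested, none was called by edgeR although all 9 were positive and 6 had an unadjusted p under 0.05. Ly6g, the surface antigen of mouse neutrophils, gave 5.02 (SE 1.30, adjusted p = 0.0926, edgeR), and Fpr1, a formyl peptide receptor, gave 3.78 (SE 0.99, adjusted p = 0.0949, edgeR). At the other sites Ly6g was at most 0.245 CPM and Fpr1 at most 0.57 CPM. Of 6 further fibroblast genes tested, 5 were negative and 1 positive, with a median of -1.10. Only Col1a2, the other collagen I chain, was called, lower in the spleen (-3.37, SE 0.52, adjusted p = 0.0137, edgeR). The whole further list of 15 fibroblast genes overlapped between sites, summing to 23.3 to 179.8 CPM in spleen and 118.7 to 226.0 CPM in other-site primaries. Markers of other spleen cells moved with the site too: 4 of 10 erythroid genes, 1 of 6 megakaryocyte genes and 1 of 8 T cell genes were called higher. Klf1, the erythroid transcription factor, gave 7.10 (SE 0.95, adjusted p = 0.0137, edgeR). The erythroid list summed to 840.5 to 110800 CPM in spleen and 248.8 to 50380 CPM in other-site primaries. The megakaryocyte list summed to 9.21 to 122.8 CPM in spleen and 13.7 to 33.4 CPM in other-site primaries, and the T cell list to 8.88 to 262.0 CPM in spleen and 2.20 to 276.0 CPM in other-site primaries. The B lineage list summed to 1476 to 6267 CPM in the spleen and 1420 to 6741 CPM elsewhere, and none of its 6 genes was called by edgeR (1 at an unadjusted p under 0.05). Thymic epithelial markers summed to at most 2.30 CPM in spleen primaries. They summed to 11.0 CPM in the mesenteric tumour, 5.19 CPM in the thymoma and 2.23 to 6.04 CPM in the mediastinal tumours. MCL-like transplants, all from host spleens, reached 29.2 CPM. The part of these cells in the differences was not tested.

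The calls by site rest on 4 tumours outside the spleen. Leaving out 1 mouse at a time gave 0 to 9 called members. The count was 0 without p53-only replicate 4 (mediastinal) or replicate 6 (thymoma), 1 without MCL-like replicate 3, 2 without Ccnd2 non-MCL replicate 1, 3 without MCL-like replicate 1 or 4, and 4 without Ccnd2 non-MCL replicate 3. Without p53-only replicate 3, the library with the highest neutrophil sum, it was 8. The 7 fold changes kept their sign each time, with Ltf between 4.72 and 6.05 and Col3a1 between -4.91 and -3.81. Of the libraries from other sites 2 of 4, and of those from the spleen 1 of 8, have sample names that start with oTP, a prefix the labels do not explain. Without all oTP libraries, 2 other-site tumours remained and no member was called by edgeR, with log2 fold changes of 3.32 for Ltf and -4.84 for Col3a1. Without the tumour group as a covariate, 3 members were called.

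The mouse of p53-only replicates 2 and 5 gave a spleen library and one of unstated site, which allows a look at both within 1 animal without a test. In unscaled CPM, the 11 neutrophil genes summed to 757.1 in the spleen library and 77.0 in the other. The 4 fibroblast genes summed to 12.1 in the spleen library and 57.6 in the other. Both pairs lie in the same order as in the comparison of sites. The libraries of unstated site, replicates 5 and 7, have sample names that start with oTP, while the spleen library of this mouse does not. Site and prefix thus cannot be told apart within this mouse. Lyz2 ran against the neutrophil genes, at 161.6 CPM in the spleen library and 583.4 CPM in the other. The remaining library of unstated site, p53-only replicate 7, had 327.7 CPM of neutrophil and 152.4 CPM of fibroblast genes, the highest fibroblast sum of the series, of which Cxcl12 gave 50.8 CPM.

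**Figure D4:**
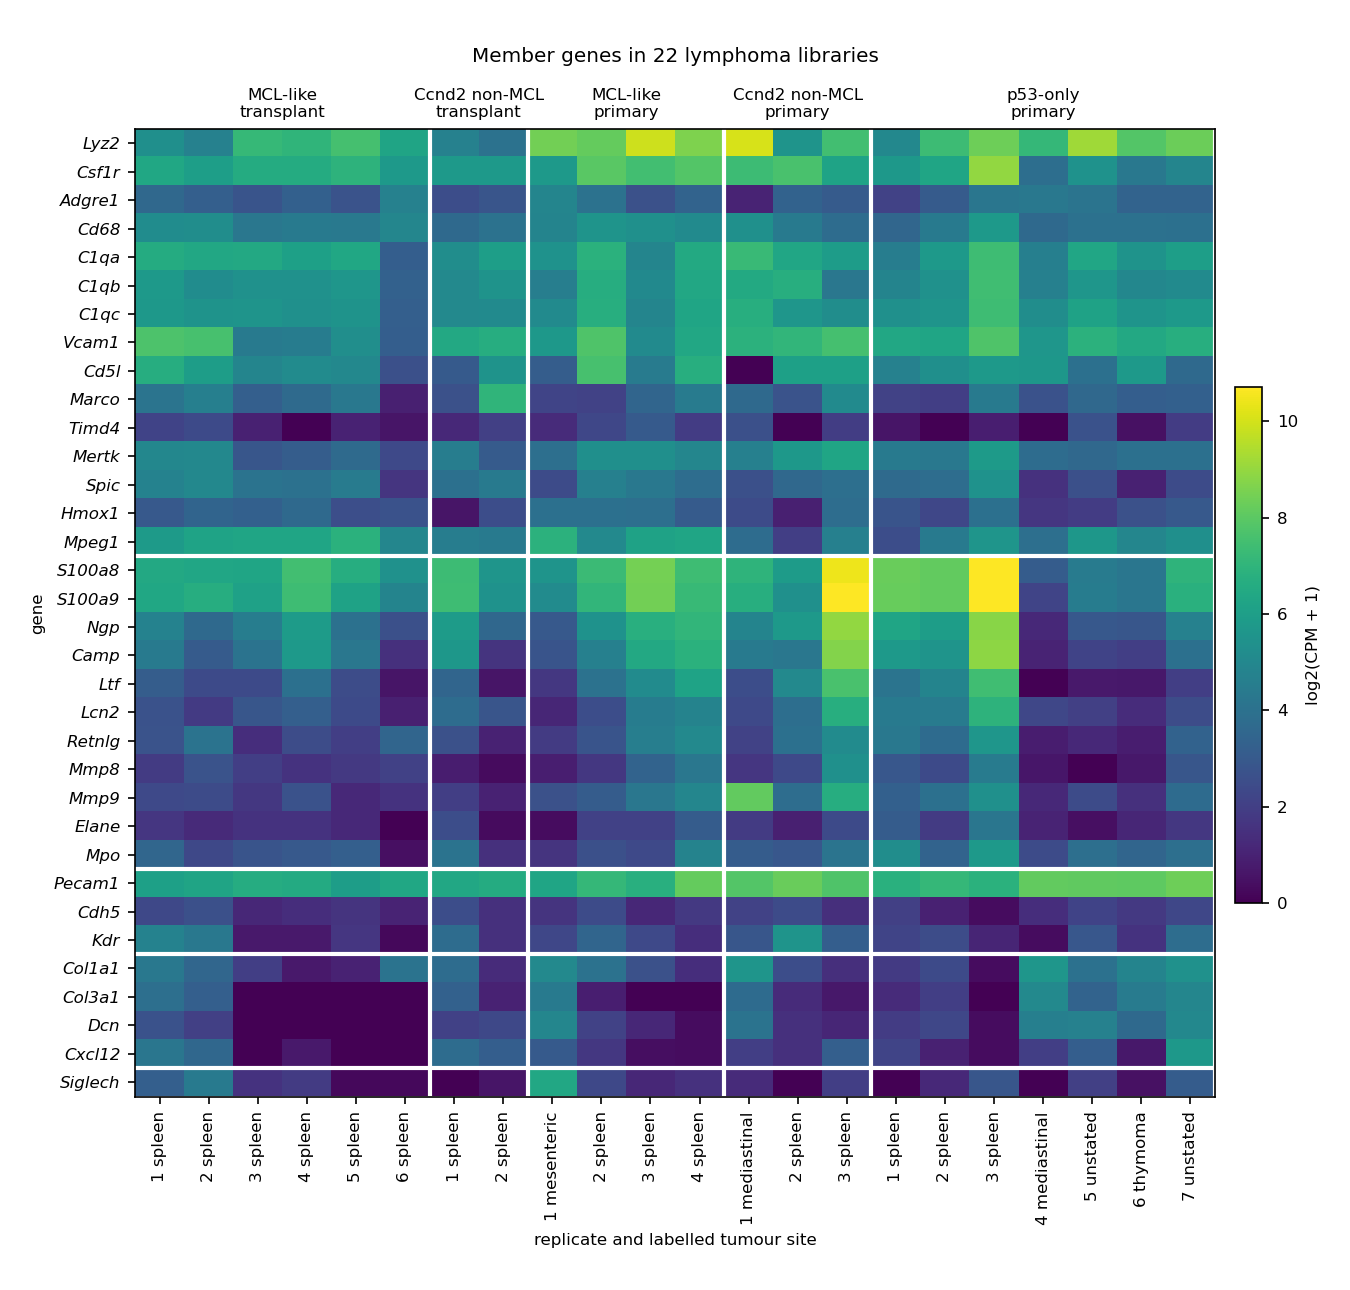
Log2 of unscaled CPM plus 1 for the 34 members (rows, grouped as macrophage, neutrophil, endothelial, fibroblast and plasmacytoid dendritic genes) in all 22 libraries, with transplants left and primaries right. Ccnd2 non-MCL replicate 3 and p53-only replicate 3, both from the spleen, have the highest neutrophil sums, 4453 and 4712 CPM, though Mmp9 is highest in Ccnd2 non-MCL replicate 1.

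The immunophenotype was compared next, first between MCL-like primaries (4 mice) and all non-MCL primaries (9 mice). No member was called by edgeR, against 5.51% of 12434 genes tested. An unadjusted p under 0.05 was seen for 2 of the 34 members and for 3112 of the 12434 genes. DESeq2 called 1698 genes, of which Mpeg1 was the only member. The median log2 fold change of the members was -0.09, against -0.07 over all genes. Mpeg1 was 142.9, 35.9, 77.9 and 69.8 CPM in MCL-like replicates 1 to 4, and 2.94, 23.0 and 48.6 CPM as lowest, median and highest value in non-MCL primaries. The groups overlapped, with means of 81.6 ± 44.7 CPM in MCL-like (SD, n = 4) and 22.01 ± 15.02 CPM in non-MCL primaries (n = 9). Its log2 fold change was 1.88 (SE 0.55, adjusted p = 0.0571, edgeR), and it passed without Ccnd2 non-MCL replicate 2 (adjusted p = 0.0398, edgeR) or without p53-only replicate 3 (adjusted p = 0.0359, edgeR). In unscaled CPM, the median of Mpeg1 was 73.7 over the 4 MCL-like primary libraries and 74.8 over the 6 MCL-like transplant libraries. Which cells gave the Mpeg1 RNA was not tested.

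Siglech gave 3.61 (SE 1.18, adjusted p = 0.0819, edgeR), and this rests on 1 library. MCL-like replicate 1, the mesenteric tumour, had 104.0 CPM, the other 3 MCL-like primaries had 1.39 to 4.49 CPM, and non-MCL primaries had 0 to 6.97 CPM. Fold changes were positive for 12 of the 15 macrophage genes and negative for 10 of the 11 neutrophil genes, with medians of 0.58 and -0.95 on the log2 scale. With library size scaling, which gives a median of -0.22 over all genes, C1qc and Mertk turn negative. Neither list had a called gene, and neither had more than 1 gene with an unadjusted p under 0.05. Among 7 further monocyte genes, Ccr2, the chemokine receptor of inflammatory monocytes, was called higher, at 69.3 ± 18.3 CPM in MCL-like (n = 4) and 10.1 ± 10.1 CPM in non-MCL primaries (n = 9), and its log2 fold change was 2.77, with an SE of 0.69 and an adjusted p = 0.0349 by edgeR. Ms4a1, the B cell antigen CD20, was called higher as well (3.23, SE 0.84, adjusted p = 0.041, edgeR). Among markers of other cells, 8 of 8 T cell genes and 9 of 10 erythroid genes were positive, with medians of 1.63 and 2.06. Neither list had a gene called by edgeR, and 2 and 4 of them had an unadjusted p under 0.05. The T cell list summed to 130.0 to 276.0 CPM in MCL-like, 10.2 to 35.8 CPM in Ccnd2 non-MCL and 2.20 to 262.0 CPM in p53-only primaries. Without the oTP libraries, 7 of 14 macrophage genes tested were positive, with a median of 0.005. The part of other cells in these differences was not tested.

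Against Ccnd2 non-MCL primaries alone (3 mice, the same genotype), MCL-like primaries again had no called member by edgeR, against 0.308% of 12967 genes. Unadjusted p-values were under 0.05 for 3 members, Mpeg1, Mmp9 and Siglech, and for 2175 of the 12967 genes. DESeq2 called 835 genes, among them the members Mpeg1 and Mmp9. Mpeg1 was 137.9, 34.5, 75.6 and 69.3 CPM in MCL-like replicates 1 to 4 and 12.6, 2.95 and 22.6 CPM in Ccnd2 non-MCL replicates 1 to 3, with no overlap (log2 fold change 2.62, SE 0.77, adjusted p = 0.120, edgeR). Over all genes, 16.6% had groups that did not overlap. Mmp9 was 6.37, 8.17, 19.3 and 26.02 CPM in the MCL-like and 281.1, 13 and 92.5 CPM in the Ccnd2 non-MCL primaries, which overlap (-3.10, SE 1.07, adjusted p = 0.164, edgeR). All 8 T cell genes were positive in this comparison, with a median log2 fold change of 3.24. Groups did not overlap for 4 of them and 4 had an unadjusted p under 0.05, with none called by edgeR. Of the 10 erythroid genes 9 were positive, with a median of 1.56. Their part in the members' values was not tested.

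Between Ccnd2 non-MCL (3 mice) and p53-only primaries (6 mice), no gene at all was called by edgeR, which is 0% of 12967. At an unadjusted p under 0.05 there were 1330 genes, among them the members Mmp9, Kdr and Mertk, and DESeq2 called 115 genes, 1 of them a member. Mmp9 was 281.1, 13 and 92.5 CPM in Ccnd2 non-MCL mice and 1.28 to 41.3 CPM in p53-only mice (log2 fold change 3.35, SE 0.93, adjusted p = 0.321, edgeR). Ccnd2 non-MCL replicate 1, the highest, was the mediastinal tumour described above. This comparison and the previous one share the Ccnd2 non-MCL mice. Among spleen libraries alone, no member was called in any of the 3 comparisons of immunophenotype and genotype.

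Transplanted MCL-like tumours were compared with the primaries of the same 3 mice, with the mouse as a block. Again no gene was called by edgeR, which is 0% of 12020, while 656 genes had an unadjusted p under 0.05 and DESeq2 called 32. Col3a1 fell under the low-count filter. Of the 33 members tested, 32 had negative log2 fold changes, with a median of -0.86, against 0.01 over all genes tested, and Spic was the exception (negative with library size scaling, where the median of all genes was -0.10). In the fit without the mouse block, Marco, Kdr and Cxcl12 were positive as well. An unadjusted p under 0.05 was seen for 4 of the 33, namely Lyz2, Mmp9, Pecam1 and Dcn. Markers of cells outside the member lists ran the same way: all 8 T cell genes were negative, with a median of -2.17, and all 10 erythroid genes were negative, with a median of -3.30. Unadjusted p-values were under 0.05 for 5 T cell genes and 1 erythroid gene. DESeq2 called 2 T cell genes and 1 erythroid gene. Without the mouse block the medians were -1.96 and -0.76, with 2 erythroid genes positive. The T cell list summed to 16.2 to 106.1 CPM in the 6 MCL-like transplants and 130.0 to 276.0 CPM in the 4 MCL-like primaries, and the erythroid list to 277.1 to 118900 CPM in transplants and 23210 to 110800 CPM in primaries. The part of these cells in the members' values was not tested.

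Lyz2 was at 35.0, 79.5 and 139.0 CPM in the transplants from MCL-like primaries 1, 2 and 4, against 388.4, 291.3 and 318.2 CPM in those primaries. Every transplant lay below every primary, and the means were 84.5 ± 52.2 CPM in transplants and 332.6 ± 50.1 CPM in primaries (SD, n = 3 each). The log2 fold change was -2.16 (SE 0.48, adjusted p = 0.820, edgeR), and DESeq2 called it (adjusted p = 0.00105). Mmp9 did not overlap either, at 4.53, 2.07 and 4.07 CPM in transplants and 6.02, 7.70 and 23.0 CPM in primaries (-1.61, SE 0.58, adjusted p = 0.820, edgeR). Over all genes, 7.25% did not overlap in this comparison.

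The 3 mice did not behave alike for the other macrophage genes. C1qa was at 94.9, 8.46 and 79.9 CPM in the transplants from primaries 1, 2 and 4, against 48.2, 115.1 and 72.2 CPM in the primaries. Vcam1 was at 212.5, 8.65 and 21.7 CPM in the transplants, against 58.5, 215.7 and 67.5 CPM in the primaries. Vcam1 was higher in the transplant only for the mesenteric tumour of primary 1, which in the hosts was taken from the spleen, and C1qa was higher for primaries 1 and 4. MCL-like replicate 6 of the transplants, from primary 2, had the lowest level of all 3 C1q chains among the 22 libraries, between 8.09 and 9.17 CPM unscaled.

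Among the MCL-like transplants, several fibroblast and vessel genes were high in those of 1 donor tumour. Col3a1 was at 13.8 and 8.47 CPM (unscaled) in both transplants of the mesenteric tumour and at 0 in the other 4 MCL-like transplants, where 3 counts stand for 0.515 to 0.983 CPM. Kdr was at 25.7 and 18.4 CPM in the pair from the mesenteric tumour and at 0.180 to 2.23 CPM in the other 4. Not all genes of these types did so: Col1a1 was at 18.7 and 10.5 CPM in the pair and at 0.656 to 2.95 CPM in 3 of the other 4, but the remaining one, replicate 6, lay between the values of the pair. Pecam1 was at 66.1 and 74.9 CPM in the pair and at 60.6 to 99.0 CPM in the other 4. Siglech was at 8.35 and 19.5 CPM in that pair and at 0.172 to 2.62 CPM in the other 4, and the mesenteric primary itself had 84.5 CPM. The pair shares a donor tumour, so it counts as 1 mouse.

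The 2 Ccnd2 non-MCL transplants, from 1 tumour and with no primary here did not match each other in every gene. Marco was at 5.29 and 126.6 CPM unscaled, the second being the highest value of the series. S100a8 was at 163.2 and 46.5 CPM, in the opposite order. No test was possible with 1 mouse. Levels in all transplants stem from the host, the tumour or both, which cannot be told apart.

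**Figure D5:**
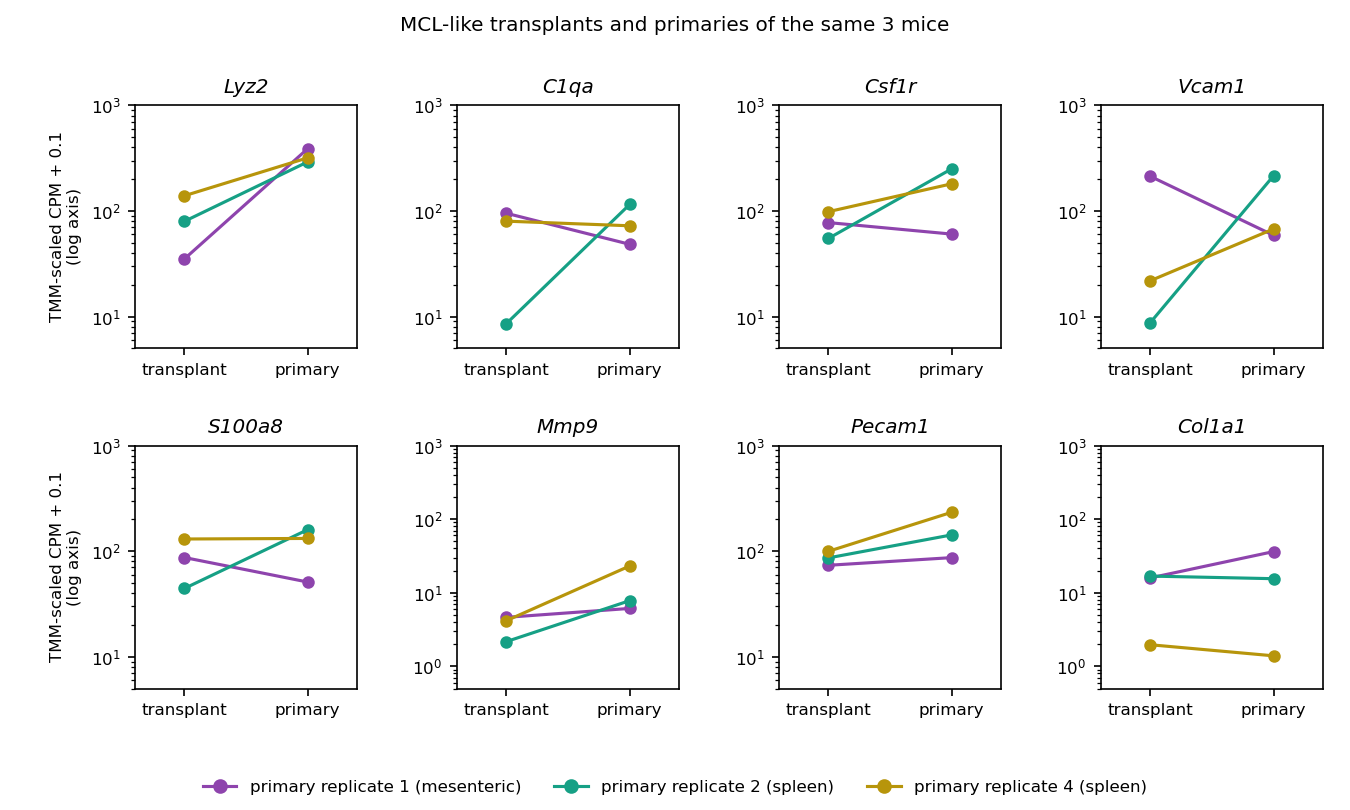
TMM-scaled CPM plus 0.1 (log axis) of 8 member genes in MCL-like transplants and in the primaries of the same 3 mice, joined by lines. Lyz2, Mmp9 and Pecam1 were lower in the transplant of all 3 mice, while Vcam1 was higher only in the transplant of the mesenteric primary.

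Partner genes were read against each other in 11 pairs over the 13 primary mice, on log2(TMM-scaled CPM + 1) with permutation p-values adjusted over the pairs. S100a8 and S100a9, which form 1 protein complex, gave r = 0.997 and rho = 0.995 (both adjusted permutation p = 5.5e-05), and r = 0.995 without the 2 mice farthest from the median. Within the 8 spleen mice they gave r = 0.998 and rho = 1.0 (adjusted exact permutation p = 0.000273 and 0.000546). C1qa with C1qc gave r = 0.879 and rho = 0.874 over 13 mice (adjusted permutation p = 0.00011 and 0.000687), r = 0.843 without the 2 farthest mice, and r = 0.867 and rho = 0.881 in the spleen (adjusted exact permutation p = 0.0112 and 0.0159).

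Some pairs have levels that fall into separate clusters by site, so the pairs below were read mainly within the spleen. This reading was chosen after seeing the data. Camp with Ngp gave r = 0.979 and rho = 0.976 over 8 mice (adjusted exact permutation p = 0.000682 and 0.00218), and r = 0.950 without the 2 farthest. Ltf with Lcn2 gave r = 0.912 and rho = 0.905 (adjusted exact permutation p = 0.0105 and 0.0125), but r = 0.598 without the 2 farthest mice, so the relation leans on those. Col1a1 with Col3a1 gave r = 0.392 and rho = 0.342 (adjusted exact permutation p = 0.372 and 0.451), with Col3a1 at 0 to 3.04 CPM. Csf1r with Adgre1 gave r = 0.833 and rho = 0.905 in the spleen (adjusted exact permutation p = 0.0196 and 0.0125) and r = 0.737 without the 2 farthest mice, but r = -0.0766 and rho = 0.022 over 13 mice (adjusted permutation p = 0.804 and 0.948). Cdh5 with Kdr gave r = 0.678 in the spleen (adjusted exact permutation p = 0.0808). Spic with Vcam1, both macrophage genes, gave r = 0.481 over 13 mice (adjusted permutation p = 0.116) and r = 0.429 in the spleen (adjusted exact permutation p = 0.37). Without the 2 farthest spleen mice, the r of Spic with Vcam1 was -0.778. In all, 7 of the 11 pairs had an adjusted p under 0.05 within the spleen. C1qa, of macrophages, with S100a8, of neutrophils, gave r = 0.373 and rho = 0.297 over 13 mice (adjusted permutation p = 0.228 and 0.359), r = -0.184 without the 2 farthest mice, and r = 0.0809 in the spleen (adjusted exact permutation p = 0.848). The p-values treat mice as replicates of one another, and genes of 1 library share its depth.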

How the data were processed

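The members and marker lists were chosen with earlier results of these data known. Raw counts per gene were deposited by the authors as 1 table of 22 columns. Per the labels' protocols, libraries were made with a 3' mRNA kit, and the submitters' processing notes name FastQC, STAR and GRCm38 without versions. For the counting tool and its strand setting, the sources used here give nothing. Gene names came from GENCODE M21, which matched 52489 of 52636 IDs. Ccl19 and Ccl21a match several IDs and were not used here.

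Libraries of 1 mouse and origin were summed. Counts were TMM-scaled, filtered with filterByExpr and tested in edgeR 4.0.16 by quasi-likelihood (robust glmQLFit and glmQLFTest; R 4.3.3, limma 3.58.1) with Benjamini-Hochberg adjustment over all genes tested. SE was derived from the fitted fold change and its F value. All 34 members are named; of the other lists, up to 3 called genes, or the 2 with the lowest p where none was called. Alternatives were DESeq2 1.42.0, other scalings, no filter, other covariates and leaving out mice or libraries. Fits were tested on simulated data. Correlations and figures used Python 3.11.15, scipy 1.17.1 and matplotlib 3.10.9, with 100000 permutations over all mice (smallest p 1e-05).

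For transplants and primaries the labels name the shared mouse, and deviations within the 3 pairs correlated at 0.237, 0.245 and 0.362 over 12020 genes. No 2 libraries matched within sampling noise (chi-square per degree of freedom at least 5.36 over 231 pairs). Totals of 2693399 to 8146613 counts set the depth. Floors cover counting error only. The kit reads transcript ends, so levels are compared between samples and not between genes. Mice are separate animals, but the labels do not say whether libraries were prepared together.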

Additional observations from a re-analysis of the deposited data

Results flagged for a closer look

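A mouse stood far from the others of its group, by the Dixon criterion on unscaled CPM, in 34 of 102 sets of 1 gene and 1 group (33.3%). Chance gives this in about 1 in 20 groups if values are normally distributed, which was not tested for these CPM. Values of 1 library across many genes are not independent.

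The p53-only replicate 3 was the high value for 17 genes. Its macrophage genes were Csf1r at 498.1, Cd68 at 53.8, C1qa at 167.0, C1qb at 169.0 and C1qc at 163.8 CPM. It also had Vcam1 at 215.4, Marco at 19.6, Mertk at 56.7 and Spic at 42.9 CPM. Its neutrophil genes were S100a8 at 1672, S100a9 at 1650, Ngp at 445.7, Camp at 469.9, Ltf at 170.7, Lcn2 at 121.2, Mmp8 at 21.0 and Mmp9 at 40.0 CPM. The p53-only replicate 7 was high for Cxcl12 at 50.8 CPM.

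Among MCL-like transplants, replicate 6 was low for C1qa at 8.09, C1qb at 9.17 and C1qc at 8.45 CPM. The mouse of transplants 1 and 2 was high for Vcam1 at 202.8, Timd4 at 3.83, Kdr at 22.5, Col3a1 at 11.5, Dcn at 4.45, Cxcl12 at 14.6 and Siglech at 13.2 CPM.

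Among MCL-like primaries, replicate 1 was high for Col3a1 at 19.6, Dcn at 28.8 and Siglech at 84.5 CPM. Replicate 3 was high for Lyz2 at 941.3 CPM. Replicate 4 was low for Hmox1 at 7.52 CPM and high for Mpo at 26.6 CPM.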

How the results depend on the processing

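The 7 calls by site kept their sign in all 19 settings, but not their significance. Called members were 7 by site, 15 with no low-count filter (adding S100a8, S100a9, Camp, Mmp8, Mpo, Csf1r, Cd5l and Spic), 3 with no group covariate and 0 without oTP libraries, and 0 to 9 when single mice were left out. Called genes by site were 129, against 737 with DESeq2, 1002 with no filter, 229 with unstated sites counted as other sites, 1 without oTP libraries and 1 to 150 with single mice left out. For MCL-like against Ccnd2 non-MCL primaries, called members were 0, against 2 with DESeq2 and 0 to 0 with mice left out. Called genes there were 40, against 22 with RLE size factors, 835 with DESeq2, 116 in spleen only, 95 with spleen as a covariate, 552 without oTP libraries, 16 without p53-only replicate 5 (chosen after seeing the data) and 0 to 54 with mice left out. Against all non-MCL primaries, called members were 0, against 1 with DESeq2 and 0 to 1 with mice left out. Called genes there were 685, against 1698 with DESeq2, 39 in spleen only, 246 without oTP libraries and 176 to 1065 with mice left out. For Ccnd2 non-MCL against p53-only primaries, 1 member was called with DESeq2. Called genes there were 0, against 115 with DESeq2, 2 with no filter, 41 in spleen only, 116 without oTP libraries and 0 to 8 with mice left out. For transplants, called members were 0, against 1 with DESeq2 (Lyz2) and 2 with no filter, and called genes were 0, against 32 with DESeq2, 35 with no filter, 14 with only mice that have a spleen primary and 0 to 14 with mice left out. Without the replicate block for the mouse, 0 members and 0 genes were called for transplants. Partner pairs passing were 8 of 11 over 13 mice with and without scaling, a count that pools site clusters, and 7 of 11 within the spleen (chosen after seeing the data), where Col1a1 with Col3a1 and Cdh5 with Kdr no longer passed and Csf1r with Adgre1 did. The causes were not tested, and 4 tumours outside the spleen limit the comparison of sites.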
